A study of Mus musculus with 8 samples.

Results

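Runx, Hobit and Blimp-1 residency factors are described here in Ly6C+CXCR3+ CD8 T cells of the mouse lymph node, as 9 genes chosen by symbol: Runx1, Runx2, Runx3 and their partner Cbfb, Zfp683 (Hobit), Prdm1 (Blimp-1), and Notch1, Notch2 and Rbpj of the Notch pathway. All 9 had a row among the 13245 genes of the deposited table. RNA-seq was carried out on cells sorted from B6 mice (C57BL/6, the wild type) and from CD103Tg mice, which overexpress CD103, with 4 libraries per group. Ages, the promoter that drives the transgene and the mouse line behind it are not given in the sources used here, and no other allele or treatment is named for either group. Nothing in the labels ties the replicates to different animals, and a p-value here therefore measures the spread between 4 libraries per group, part of which may be technical.

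Runx proteins are DNA-binding transcription factors that gain affinity for their sites when they pair with CBF-beta, the product of Cbfb. In CD8 T cells Runx3 keeps Cd4 silent and takes part in the cytotoxic programme, in the expression of CD103 and in the retention of memory cells in tissues. Hobit and Blimp-1 are related zinc-finger repressors that, in resident lymphocytes, act on genes of tissue exit and of central memory. Notch receptors are cut by proteases after ligand binding, and their intracellular part joins RBPJ on DNA and turns it from a repressor to an activator.

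Of these genes Runx1 was lower in CD103Tg cells and Runx2, Zfp683 and Prdm1 were higher. Runx1 was 1.71-fold higher in B6 than in CD103Tg, whereas Runx2, Zfp683 and Prdm1 were 1.45-fold, 1.85-fold and 1.92-fold higher in CD103Tg than in B6. Runx3, Cbfb, Notch1, Notch2 and Rbpj did not pass the test. All 9 genes passed the filter on low values (a mean of at least 1 CPM), and 4 of them were called at a limma adjusted p under 0.05, 3 higher and 1 lower. The background for these counts is wide change: of 11503 genes tested, 31.2% were called, with 17.4% higher in CD103Tg and 13.8% lower, and nothing particular to the 9 genes is read from their count. Over all genes the main scaling gave 2000 higher and 1592 lower, whereas equal totals gave 1759 and 1850 and quantile normalization 1741 and 1995, so the larger side turned with the scaling. In 4 of the 9 genes all libraries of one group lay above all of the other, which held for 31.0% of tested genes.

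**Figure D1:**
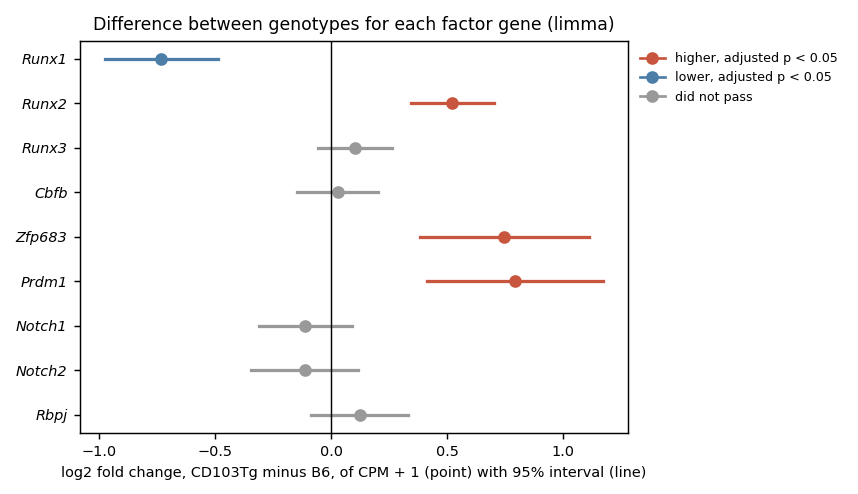
Log2 fold change of each gene on the x axis (CD103Tg minus B6, on the log2(CPM + 1) scale; point, estimate; line, 95% interval from limma) for the 9 genes on the y axis. Runx1 lies at -0.73 and Runx2, Zfp683 and Prdm1 lie at 0.52 to 0.79, while the intervals of the other genes include 0.

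The Runx genes are each transcribed from a distal and a proximal promoter, and the RefSeq windows that hold a shared Runx-type element are printed because Runx1 was called lower and Runx2 higher while Runx3 did not pass. Each window runs 5′ to 3′ on the strand of the gene, from 250 bases before to 50 bases after an annotated start (RefSeq, GRCm38.p6). Capitals mark AACCACA, a Runx-type site, and the longest run of letters that the 3 windows share. For Runx1 the window is chr16:92826025-92826324 on the minus strand, for Runx2 chr17:44814578-44814877 on the minus strand and for Runx3 chr4:135120395-135120694 on the plus strand.
Runx1: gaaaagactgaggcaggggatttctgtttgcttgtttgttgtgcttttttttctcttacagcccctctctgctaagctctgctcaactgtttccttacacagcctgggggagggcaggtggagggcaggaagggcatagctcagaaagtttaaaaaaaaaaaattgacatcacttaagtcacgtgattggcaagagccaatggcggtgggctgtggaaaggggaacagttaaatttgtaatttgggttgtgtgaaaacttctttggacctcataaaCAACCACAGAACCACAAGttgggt
Runx2: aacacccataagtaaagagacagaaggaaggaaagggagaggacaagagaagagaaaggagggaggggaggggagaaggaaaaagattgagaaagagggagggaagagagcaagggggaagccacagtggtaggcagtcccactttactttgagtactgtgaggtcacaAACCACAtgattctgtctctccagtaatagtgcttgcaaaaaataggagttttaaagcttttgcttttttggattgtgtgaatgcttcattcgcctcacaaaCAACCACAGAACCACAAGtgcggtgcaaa
Runx3: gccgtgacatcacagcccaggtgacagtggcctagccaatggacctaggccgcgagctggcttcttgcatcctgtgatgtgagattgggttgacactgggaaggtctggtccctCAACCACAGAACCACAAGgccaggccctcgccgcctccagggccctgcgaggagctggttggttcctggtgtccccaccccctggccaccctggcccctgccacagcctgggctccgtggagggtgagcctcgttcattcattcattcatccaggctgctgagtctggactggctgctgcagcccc
The longest run shared by all 3 windows was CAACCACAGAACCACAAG, 18 letters that hold AACCACA on both sides of a single G. It began 27 bases after the start in Runx1, 22 bases after the start in Runx2 and 136 bases before the start in Runx3. Among 32851 windows of the same length, searched on both strands, 4 (0.0122%) held it: the 3 Runx windows and a window of Gm16225, which lies on the opposite strand and shares 232 bases with that of Runx3. The run was picked from these sequences, so its rarity is a description. A further AACCACA lay 81 bases before the start in Runx2. AACCACA alone was found in 5.27% of the windows. The second listed windows of Runx1 and Runx3 held no AACCACA.

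**Figure D2:**
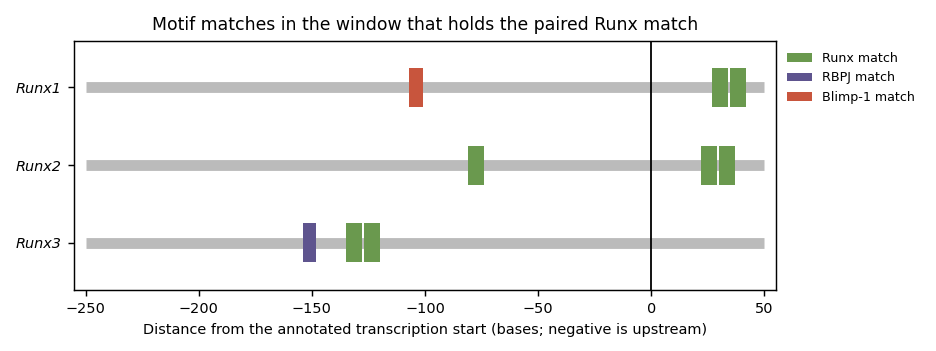
Positions of motif matches on the x axis (bases from the annotated start, negative upstream) in the Runx1, Runx2 and Runx3 windows printed above (y axis). Green blocks are AACCACA, the purple block TGGGAA (an RBPJ-type site) and the red block GAAAGT (a Blimp-1-type site), and the adjacent green blocks are the pair within the shared run, which begins 27, 22 and 136 bases from the start.

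Values are TMM-scaled CPM, read counts relative to the scaled total of each library. The estimated reads over the listed genes were 50187283 to 56371479 per library. Itgae, which encodes CD103, was at 41.4, 51.4, 37.5 and 173.9 CPM in the B6 libraries and ranged from 3469 to 5509 CPM in those of CD103Tg, in the direction of the labels. Cd247, the CD3 zeta gene, ranged from 285 to 478 CPM in B6 libraries and from 7877 to 10164 CPM in CD103Tg, so CD103 and other features of the CD103Tg mice cannot be told apart as sources of a difference. Of 12 identity genes of CD8 T cells 0 were higher and 5 lower in CD103Tg, and their summed level was 10470 to 12059 CPM in B6 and 9594 to 10761 CPM in CD103Tg. Other marker lists also moved: summed levels went from 59.4 to 80.2 CPM in B6 to 42.0 to 60.02 CPM in CD103Tg for B cells, from 68.8 to 134.1 to 94.98 to 191.5 CPM for myeloid cells and from 16.7 to 27.2 to 46.6 to 108.0 CPM for gamma-delta T cells. In the last list the constant-region genes Tcrg-C1, Tcrg-C2 and Tcrg-C4 rose, while the defining delta-chain gene Trdc averaged 10.8 ± 2.52 CPM in B6 and 13.0 ± 2.07 CPM in CD103Tg, overlapped and did not pass (adjusted p = 0.236). Their part in the results was not tested. B6 replicate 4 was the highest B6 library for both Itgae and Cd247 (the others were at most 51.4 and 315 CPM). On the first principal component (66.4% of the variance) CD103Tg replicate 4, at 20.5, was the CD103Tg library nearest to B6, and the others lay at 24.1 to 29.9. On the second both libraries numbered 4, at -16.9 and -13.7, lay farther down than the others, which lay between -4.48 and 10.05. Without these 2 libraries the log2 fold changes were -0.71 for Runx1, 0.60 for Runx2, 0.89 for Zfp683 and 1.00 for Prdm1, and all 4 passed. In bulk samples, fewer cells of a type and less RNA per cell cannot be told apart.

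Runx1 (chromosome 16, 92601466 to 92826149, GRCm38), a regulator of thymocyte and naive T cell development, was at 29.9, 21.9, 31.4 and 30.5 CPM in the B6 libraries and 15.6, 17.6, 15.7 and 17.3 CPM in the CD103Tg libraries. The groups did not overlap, and B6 replicate 2 was the lowest of its group. The means were 28.4 ± 4.39 and 16.6 ± 1.03 CPM (SD, n = 4 each), which gave a log2 fold change of -0.73 with an SE of 0.11 (limma adjusted p = 0.000478; ± after a fold change is the SE from here on). In Runx1 106 exon bases, 0.881% of its exon length, are shared with the antisense gene Gm26626.

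Runx2 (chromosome 17, 44495987 to 44814797), known from bone formation and from effector and memory CD8 T cells, was at 28.4, 25.4, 27.7 and 31.2 CPM in B6 and 45.8, 38.5, 40.5 and 38.7 CPM in CD103Tg. The groups did not overlap, and CD103Tg replicate 1 was the highest of the 8 libraries. The log2 fold change was 0.52 ± 0.08 (limma adjusted p = 0.000573). The antisense gene Runx2os1 shares 519 exon bases with Runx2 (5.87% of its exon length), the library kit does not mark strand, and Runx2os1 itself was at a mean of 1.58 CPM over the 8 libraries. Plasmacytoid dendritic cells express Runx2, and 8 of 11 of their markers had values, summing to 133.5 to 158.4 CPM in B6 and 236.5 to 298.6 CPM in CD103Tg. These sums were mostly Bst2 (93.1 ± 7.63 and 150 ± 20.6 CPM), Irf8 (24.8 ± 1.61 and 40.6 ± 0.908 CPM), Tlr7 (10.4 ± 2.41 and 41.9 ± 5.97 CPM) and Ccr9. Of the 6 tested markers 4 were higher. Ccr9 (18.5 ± 5.08 and 17.2 ± 5.95 CPM) and Tcf4 did not pass. Siglech, the defining marker of plasmacytoid dendritic cells, ranged from 0 to 0.385 CPM in B6 libraries and from 0.67 to 3.4 CPM in those of CD103Tg. The part of these cells in the Runx2 result was not tested.

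Runx3 (chromosome 4, 135120652 to 135177990), the Runx gene with the highest level in these cells, was at 152.3, 179.3, 166.8 and 169.0 CPM in B6 and 170.7, 206.0, 171.0 and 170.8 CPM in CD103Tg. The groups overlapped, and CD103Tg replicate 2 stood above the other libraries of its group, which lay within 1 CPM of each other. The log2 fold change was 0.10 with a 95% interval of -0.06 to 0.26 (limma adjusted p = 0.32). Cbfb (chromosome 8, 105170674 to 105217989), the shared partner subunit, was at 183.8, 166.6, 167.2 and 149.5 CPM in B6 and 159.7, 183.5, 152.7 and 184.9 CPM in CD103Tg. The 2 groups covered nearly the same range, and the log2 fold change was 0.03 with an interval of -0.15 to 0.20 (limma adjusted p = 0.828). The sign of the Cbfb value was not stable, being -0.00073 with equal totals and -0.0064 with quantile normalization.

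**Figure D3:**
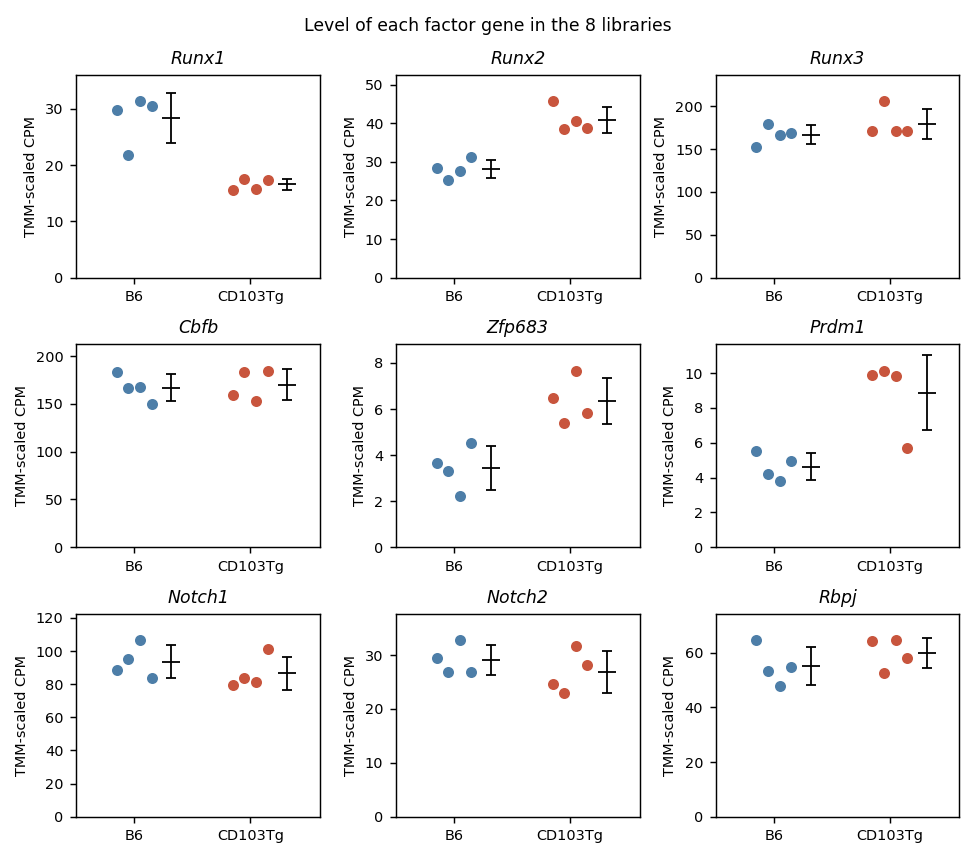
TMM-scaled CPM (y axis, linear and starting at 0, with its own scale per panel) of the 9 genes in the 4 B6 and 4 CD103Tg libraries (x axis; each point is a library, in replicate order; the bar is the mean ± SD). The groups separate for Runx1, Runx2, Zfp683 and Prdm1, and the lowest CD103Tg library of Prdm1 (5.69 CPM) lies next to the highest B6 library (5.55 CPM).

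To compare levels between genes, CPM was divided by the annotated exon length in kilobases. On this scale Runx3 made up 84.2% to 88.4% of the summed Runx level in the B6 libraries and 84.0% to 87.6% in the CD103Tg libraries. Runx1 made up 6.10% ± 1.09 in B6 and 3.29% ± 0.210 in CD103Tg (SD, n = 4 each), and Runx2 8.21% ± 0.848 and 11.1% ± 1.44. The ratio of Runx1 to Runx2 per kilobase was 0.773, 0.633, 0.832 and 0.718 in B6 and 0.251, 0.336, 0.285 and 0.328 in CD103Tg. Every B6 ratio was above every CD103Tg ratio, a description of the same values that gave the 2 calls. The ratio of Cbfb to the summed Runx level was 1.08 to 1.46 in B6 and 1.10 to 1.33 in CD103Tg.

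**Figure D4:**
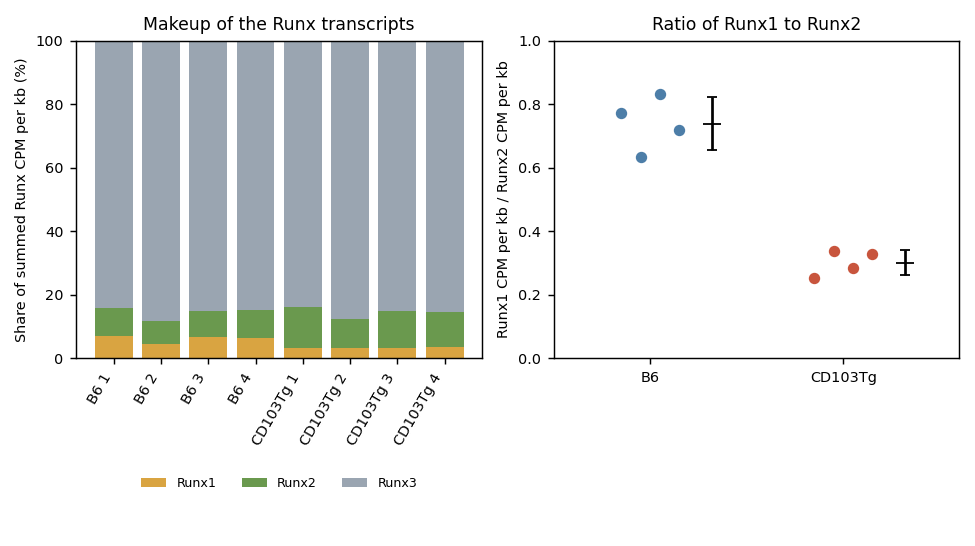
Left, share of Runx1, Runx2 and Runx3 in their summed CPM per kilobase (y axis, percent) in each library (x axis). Right, the ratio of Runx1 to Runx2 per kilobase by group (points, libraries; bars, mean ± SD). Runx3 holds at least 84.0% in every library, and the ratio is 0.739 ± 0.0849 in B6 and 0.300 ± 0.0396 in CD103Tg.

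Of 15 tested genes of Runx cofactors, 6 fell, 2 rose and 7 did not pass. Called genes made up 53.3%, and the median log2 fold change was -0.09, against 31.2% and -0.01 for all tested genes. The Groucho corepressor gene Tle1 averaged 19.2 ± 2.6 CPM in B6 and 5.3 ± 1.07 CPM in CD103Tg, and its log2 fold change was -1.69 ± 0.14 (limma adjusted p = 7.48e-06). The coactivator gene Crebbp fell by 0.40 ± 0.06 and the corepressor gene Tle4 by 0.22 ± 0.05 on the log2 scale, and the kinase gene Hipk2 rose by 0.60 ± 0.06. Tle3, another Groucho gene, was at 76.9 ± 10.4 and 68.3 ± 0.833 CPM and did not pass (adjusted p = 0.172). The count of called cofactor genes was 8, and 5 without any one of B6 replicates 2 and 3 and CD103Tg replicates 1, 2 and 3.

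Of 13 tested T cell genes that Runx factors are known to regulate, 5 rose, 4 fell and 4 did not pass. That is 69.2% called, against 31.2% of all tested genes, with a median log2 fold change of -0.06. Eomes and Tbx21, T-box factors of memory and effector cells, rose by 1.07 ± 0.08 and 0.62 ± 0.08. The granzyme B gene Gzmb and the chemokine gene Ccl5 rose by 4.33 ± 0.28 and 1.69 ± 0.24. The perforin gene Prf1 went from 287 ± 13.2 to 393 ± 76.5 CPM (adjusted p = 0.0155). The follicular homing receptor gene Cxcr5 fell by 3.07 ± 0.24, the naive and memory factor gene Tcf7 by 0.70 ± 0.07 and Cd8a by 0.24 ± 0.05. Zbtb7b, the CD4-lineage factor gene that Runx3 represses, was below the filter, with means of 0.71 ± 0.486 CPM (B6) and 0.296 ± 0.133 CPM (CD103Tg).

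Zfp683 (chromosome 4, 134053838 to 134058996), which encodes Hobit, was at 3.66, 3.31, 2.22 and 4.51 CPM in B6 and 6.47, 5.39, 7.67 and 5.84 CPM in CD103Tg. The groups did not overlap, and B6 replicate 3 was the lowest library. These values rest on 116 to 264 estimated reads per B6 library and 266 to 412 per CD103Tg library. The log2 fold change was 0.75 ± 0.17 on the log2(CPM + 1) scale, which understates the change of a gene this low (limma adjusted p = 0.00565). On chromosome 4 the gene ends 1061655 bases before Runx3 begins, and Zfp683 was called while Runx3 was not.

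Prdm1 (chromosome 10, 44437177 to 44528501), which encodes Blimp-1, was at 5.55, 4.19, 3.82 and 4.95 CPM in B6 and 9.86, 10.1, 9.85 and 5.69 CPM in CD103Tg. In CD103Tg replicates 1 to 3 it was above 9 CPM, and CD103Tg replicate 4 was close to the highest B6 library. The counting intervals of CD103Tg replicate 4 (5.06 to 6.37 CPM) and B6 replicate 1 (4.94 to 6.21 CPM) overlapped; they are 95% exact Poisson intervals on estimated reads and cover counting error only. The log2 fold change was 0.79 ± 0.17 (limma adjusted p = 0.00507), and without CD103Tg replicate 4 it was 0.97 (limma adjusted p = 0.000238). Per kilobase Prdm1 was below Zfp683 in every library, at 0.29 to 0.452 of its level in B6 and 0.257 to 0.497 in CD103Tg.

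Plasma cells express Prdm1, and immunoglobulin genes moved with the groups. Of 12 plasma cell markers 10 had values, and without Ighm, which fell from 816 ± 40.4 to 382 ± 80.7 CPM, they summed to 4.25, 6.32, 3.51 and 1.06 CPM in B6 and 98.3, 231, 34.4 and 27.4 CPM in CD103Tg. With Ighm the sums were 764 to 855 CPM in B6 and 402 to 581 CPM in CD103Tg, and Mzb1, Ighg2c and Igha were at 0 in at least 1 B6 library. Prdm1 was at 9.86, 10.1, 9.85 and 5.69 CPM in the same 4 CD103Tg libraries. Replicate 4 was the lowest of them in Prdm1 and in the sum without Ighm. Over the other CD103Tg libraries that sum ranged from 34.4 to 231 CPM, while Prdm1 ranged from 9.85 to 10.1 CPM. The part of plasma cells in the Prdm1 result was not tested. Of 13 natural killer and innate lymphoid markers 9 had values, and 5 of the 6 tested were higher. All 9 summed to 217 to 252 CPM in B6 and 421 to 509 CPM in CD103Tg. The largest values in these sums were those of Eomes (164 ± 12.8 and 345 ± 31.0 CPM), also counted above among Runx-regulated T cell genes, and Cd160 (60.7 ± 7.3 and 105 ± 14.1 CPM). Klra4, below the filter, went the other way, from 1.68 ± 0.522 to 0.0445 ± 0.0405 CPM. Ncr1, the defining marker of natural killer cells, ranged from 0.345 to 0.66 CPM in B6 libraries and from 0.183 to 0.613 CPM in those of CD103Tg.

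Of 16 tested genes of Blimp-1 cofactors and of factors that oppose or accompany it, 5 rose, 4 fell and 7 did not pass. Their median log2 fold change was -0.02, and 56.3% were called, against 31.2% of all tested genes. Id2, an inhibitor of E proteins in effector cells, rose by 2.39 ± 0.15 and Ezh2, a histone methyltransferase gene, by 0.98 ± 0.11. Id3, the counterpart of Id2 in memory precursors, fell by 2.33 ± 0.26. Among repressors that oppose Blimp-1, Bcl6 went from 10.5 ± 2.75 to 6.79 ± 0.179 CPM (adjusted p = 0.0169) and Bach2 from 64.1 ± 7.8 to 45.9 ± 4.5 CPM (adjusted p = 0.00285). Zeb2, an effector factor, was low, with means of 0.785 ± 0.404 CPM (B6) and 2.13 ± 0.619 CPM (CD103Tg); its groups overlapped and it passed (adjusted p = 0.011). The cofactor genes Hdac1, Hdac2, Ehmt2, Kdm1a and Prmt5 did not pass, with log2 fold changes of 0.04, -0.20, 0.13, -0.02 and -0.02.

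Of 17 tested genes that Hobit or Blimp-1 are known to regulate, 10 fell, 6 rose and 1 did not pass, with a median log2 fold change of -0.32. The 94.1% called stands against 31.2% of all tested genes. This list was chosen with earlier results of these data known, so its share is a description. Among the genes that fell, Klf2, a regulator of trafficking, went from 444 ± 21.9 to 355 ± 18.4 CPM. S1pr1, an egress receptor, went from 752 ± 36.7 to 606 ± 53.6 CPM and Ccr7, a homing receptor, from 672 ± 38.4 to 425 ± 9.27 CPM. The groups did not overlap for any of these 3 genes. S1pr5, another egress receptor gene, moved the other way, from 1.26 to 2.54 CPM in B6 to 53.3, 52.8, 33.6 and 18.2 CPM in CD103Tg (log2 fold change 3.68 ± 0.29, limma adjusted p = 6.14e-06). Lef1, a factor of naive cells, fell by 1.10 ± 0.07, and Cxcr6, a receptor of resident and effector cells, rose from 544 ± 47.2 to 1173 ± 230 CPM. Il7r, the interleukin-7 receptor gene, was at 634 ± 58.3 and 533 ± 75.3 CPM and did not pass (adjusted p = 0.0743).

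**Figure D5:**
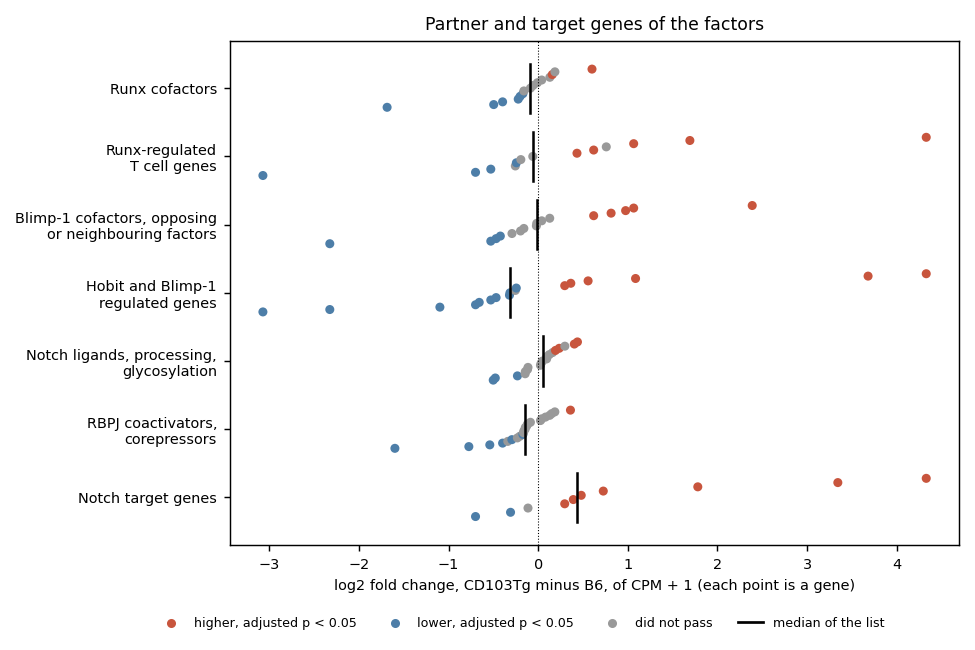
Log2 fold change (x axis, CD103Tg minus B6, on the log2(CPM + 1) scale) of each tested gene (point) in the 7 lists of partner and target genes (y axis), with the list median as a vertical line. The list of Hobit and Blimp-1 regulated genes has 10 lower and 6 higher genes, and that of Notch targets 2 lower and 7 higher.

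Notch1 (chromosome 2, 26457903 to 26516663), the more abundant receptor, was at 88.5, 95.1, 106.6 and 83.8 CPM in B6 and 79.4, 83.9, 81.5 and 101.4 CPM in CD103Tg. The groups overlapped, and the log2 fold change was -0.11 with a 95% interval of -0.31 to 0.09 (limma adjusted p = 0.39). Without both libraries numbered 4 it was -0.24 and passed (limma adjusted p = 0.0306). Notch2 (chromosome 3, 98013527 to 98150361) was at 29.6, 26.8, 32.8 and 26.9 CPM in B6 and 24.7, 22.9, 31.7 and 28.2 CPM in CD103Tg, also overlapping, with a log2 fold change of -0.11 and an interval of -0.34 to 0.12 (limma adjusted p = 0.453). It shares 541 exon bases (5.02%) with Gm42820 on the same strand, which was at a mean of 0.517 CPM. Rbpj (chromosome 5, 53466152 to 53657362), the DNA-binding factor of the pathway, was at 64.6, 53.3, 47.7 and 54.6 CPM in B6 and 64.2, 52.7, 64.5 and 58.1 CPM in CD103Tg. The groups overlapped, and the log2 fold change was 0.12 with an interval of -0.09 to 0.33 (limma adjusted p = 0.36).

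Of 19 tested genes of Notch ligands, processing and glycosylation, 4 rose, 3 fell and 12 did not pass (median log2 fold change 0.05). With 36.8% called, this list was near the 31.2% of all tested genes. Members of the gamma-secretase complex, which cuts the receptor within the membrane, differed in direction: Psen2 fell by 0.50 ± 0.06, while Aph1a rose by 0.44 ± 0.08. Furin, the protease of the first cut, rose by 0.40 ± 0.07, and Poglut1, which adds O-glucose to the receptor, fell by 0.48 ± 0.09. Adam10, the protease of the ligand-induced cut, was at 279 ± 18.2 and 285 ± 19.9 CPM (adjusted p = 0.741). Of the ligand genes, Jag2 (1.13 ± 0.502 and 0.637 ± 0.256 CPM) and Dll1 (0.0841 ± 0.0836 and 0.54 ± 0.21 CPM) were below the filter.

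Of 23 tested RBPJ coactivator and corepressor genes, 6 fell, 1 rose and 16 did not pass (median log2 fold change -0.15). The share called, 30.4%, was near the 31.2% of all tested genes. Of the Mastermind coactivators, which bind the Notch and RBPJ complex, Maml3 was at 4.97, 4.00, 3.47 and 4.35 CPM in B6 and 0.691, 0.284, 0.707 and 1.28 CPM in CD103Tg (limma adjusted p = 5.43e-05). Maml2 fell by 0.54 ± 0.08, and Maml1 was at -0.34 ± 0.12 and did not pass (adjusted p = 0.0572). L3mbtl3, an RBPJ-bound corepressor, went from 62.5 ± 5.0 to 36.1 ± 2.02 CPM, and Fbxw7, which marks the Notch intracellular part for degradation, rose by 0.36 ± 0.07.

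Of 10 tested genes known as Notch targets, 7 rose, 2 fell and 1 did not pass (90% called, median log2 fold change 0.44). The other 8 of the 18 genes of that list, among them Hes1, Hes5, Hey1, Hey2 and Heyl, had no row in the deposited, filtered table. These counts therefore leave them out. Nrarp, a target that feeds back on the Notch complex, was at 16.1, 13.9, 11.3 and 17.5 CPM in B6 and 57.4, 52.8, 56.6 and 43.7 CPM in CD103Tg. The groups stood far apart, with a log2 fold change of 1.78 ± 0.13 (limma adjusted p = 3.25e-06). Dtx1, another target, moved the other way, from 225 ± 23.2 to 181 ± 8.11 CPM (adjusted p = 0.00823). Bhlhe40, a repressor of effector and resident cells, rose by 3.34 ± 0.20 and the cyclin gene Ccnd3 by 0.73 ± 0.09, and with them the list holds Gzmb and Tcf7, which are also in other lists. Over the 7 lists together, with genes counted once, 25 of 93 tested genes rose and 26 fell, 54.8% called against 31.2% of all tested genes. The lists were chosen with earlier results of these data known, so this share is a description and no enrichment is read from it.

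On the scale of CPM per kilobase the order of levels in B6 was Cbfb (47.9 ± 4.03), Runx3 (33.4 ± 2.22), Notch1 (6.57 ± 0.695), Rbpj (4.32 ± 0.552), Runx2 (3.19 ± 0.269), Notch2 (2.69 ± 0.26), Runx1 (2.36 ± 0.365), Zfp683 (2.33 ± 0.643) and Prdm1 (0.83 ± 0.139; SD, n = 4). Neighbours from Runx2 to Zfp683 in this order overlapped in their libraries. In CD103Tg the order was Cbfb (48.9 ± 4.72), Runx3 (35.9 ± 3.51), Notch1 (6.08 ± 0.708), Rbpj (4.7 ± 0.439), Runx2 (4.62 ± 0.384), Zfp683 (4.31 ± 0.673), Notch2 (2.49 ± 0.362), Prdm1 (1.59 ± 0.383) and Runx1 (1.38 ± 0.0853). Here Rbpj, Runx2 and Zfp683 overlapped as neighbours, as did Prdm1 and Runx1. In B6 the lowest Runx1 library (1.82) stood above the highest Prdm1 library (0.995), while in CD103Tg their ranges were 1.30 to 1.46 and 1.019 to 1.819 and overlapped.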

How the data were processed

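RNA-seq libraries of sorted lymph node CD8 T cells (4 B6, 4 CD103Tg) were made with SMART-Seq v4 and Nextera XT, per the labels' protocols. Tools named in the submitters' processing notes are STAR 2.7.0f, RSEM, cutadapt 1.18 and bcl2fastq 2.17, and the build GRCm38. The authors deposited a filtered gene table of CPM values scaled by TMM, a normalized signal, per the name of the deposited table (filter: not given in the sources used here). Groups came from the sample titles.

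The test was limma 3.58.1 (R 4.3.3, trended eBayes, two-sided) of genotype on log2(CPM + 1), over genes whose mean reached 1 CPM, with Benjamini-Hochberg adjustment over all of them. Simulated data with known changes were used to check the script. For a single gene of 4 against 4, an exact permutation test over 70 assignments cannot give a p below 0.0286, the value it gave for Runx1, Runx2, Zfp683 and Prdm1. Estimated reads were recovered from the steps between values: 1 read was worth 0.0171 to 0.0203 CPM, 64.5% to 66.3% of values below 2000 reads came out whole (tolerance 0.005 of a read), and 100% came out as hundredths (tolerance 0.05 of a hundredth). They served for depth, counting intervals and voom. All 13245 gene IDs matched GENCODE M21, whose GRCm38 positions, exon unions and overlaps are used; the authors' annotation: not given in the sources used here. Promoter windows were at hand for 8 of the 9 genes, 11 in all (RefSeq, GRCm38.p6); only exact matches were searched. Python 3.11.15, numpy 2.4.6, scipy 1.17.1, pandas 2.3.3 and matplotlib 3.10.9 were used.

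The genes and the lists of partners and targets were chosen with earlier results of these data known, so list counts are descriptions. The 9 genes, Itgae, Cd247 and up to 4 called genes of smallest p in each list are named by rule. Other list genes stand for a role, and Gm16225 and the genes with overlapping exons were named after their values were seen. Alternatives tried: a pseudocount of 0.1 or 5, filtering at 5 CPM or not at all, 3 other scalings, voom, robust eBayes, array weights, a replicate block, leaving out each library, and leaving out both libraries numbered 4. A few genes of the lists are counted but not reported by name here.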

Additional observations from a re-analysis of the deposited data

Results flagged for a closer look

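In 3 of the 18 groups of 4 libraries (9 genes in 2 groups) a single library stood far from the other 3 by Dixon's gap test at the 95% level; chance flags about 1 in 20 groups. Runx1 in B6 replicate 2 was at 21.9 CPM, against 29.9 to 31.4 CPM in the other B6 libraries. Runx3 in CD103Tg replicate 2 was at 206.0 CPM, against 170.7 to 171.0 CPM in the others. Prdm1 in CD103Tg replicate 4 was at 5.69 CPM, against 9.85 to 10.1 CPM in the others. In the same library S1pr5, at 18.2 CPM, Id2, at 278 CPM, and Cxcr6, at 831 CPM, were the lowest of the CD103Tg group, whereas Zfp683, at 5.84 CPM, was not.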

How the results depend on the processing

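Under 20 alternatives (8 of them leaving out 1 library each) Runx1 stayed lower and Runx2 and Prdm1 higher past the threshold, with log2 fold changes of -0.85 to -0.62, 0.47 to 0.60 and 0.52 to 1.00. Zfp683 stayed higher under 19, at 0.43 to 0.91 (adjusted p = 0.00183 to 0.0205), and a minimum mean of 5 CPM left it untested, which gave 3 called genes in place of 4. Runx3, Notch2 and Rbpj kept their sign and did not pass. Notch1 passed without both libraries numbered 4, at -0.24, giving 5 called genes. Cbfb, near 0, changed sign with equal totals (-0.00073), quantile normalization (-0.0064), array weights (-0.022) and without both libraries numbered 4 (-0.065), and when single libraries were left out lay at -0.023 to 0.078; the cause was not tested. Called Runx cofactor genes numbered 5 to 9 when single libraries were left out, against 8. Other counts of called genes stayed within 1.5 times. The replicate block gave 4 called genes of the 9 (3 higher, 1 lower) and 3682 of the whole table against 3592. Same-numbered libraries deviated together with r = 0.22, 0.35, -0.08 and 0.12, and best matched their own number in 2 of 4 cases, so the numbers were not taken as pairs. The counting error of Prdm1 and Zfp683 limits what depth can show for single libraries.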

Other observations

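The genes whose log2(CPM + 1) values were most like those of each called gene over the 8 libraries were named as a description: the libraries fall into 2 groups, so a gene that differs between them correlates with others that do, and the top of 11503 correlations is high by selection. For Runx1 they were Slc29a3 (Pearson's r = 0.993), Tent5a (0.987) and Homer1 (0.984). For Runx2 they were Tarbp2 (0.994), Ctla2a (0.994) and Itgax (0.990), and for Zfp683 Tmem199 (0.986), Wwp2 (0.981) and Gsap (0.9753). For Prdm1 they were Spin2c (0.986), Rps6ka4 (0.984) and Slc35a2 (0.983). For genes that did not pass they were, for Runx3 Ppp2r5b (0.9837), Taf6 (0.9728) and Ints11 (0.9666) and for Cbfb Rad21 (0.9263), Suv39h2 (0.9135) and Rheb (0.9034). They were, for Notch1 Mad2l1bp (0.9641), Kctd20 (0.9476) and Tial1 (0.9306), for Notch2 Gtdc1 (0.9178), Fbrs (0.8936) and Rbmx2 (0.8916) and for Rbpj Accs (0.9763), Cab39l (0.9692) and Fam204a (0.9596). Predicted models, pseudogenes and receptor segments were left out.

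An RBPJ-type match, TGGGAA on either strand, was present in 25.6% of all 32851 promoter windows, and a Blimp-1-type match, GAAAGT on either strand, in 14.3%. Among the windows of the described genes TGGGAA was found 149 and 65 bases before the start in the first Rbpj window, 205 bases before it in the second, 154 bases before it in Runx3 and 189 bases before it in Prdm1. GAAAGT was found 107 bases before the start in Runx1 and 7 bases before it in Notch2. The 2 Rbpj windows overlap. The match 65 bases before the start in the first is the same site as that 205 bases before it in the second.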
